A study of Drosophila melanogaster with 4 samples.

Results

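The genes described here are 10 genes of the heat shock chaperone machinery, chosen by symbol from the 17023 genes counted in fly ovaries. They are the inducible *Hsp70* genes *Hsp70Aa*, *Hsp70Ba*, *Hsp70Bb* and *Hsp70Bc*, their relative *Hsp68*, the Hsp90 gene *Hsp83*, the constitutive Hsp70 cognates *Hsc70-4*, *Hsc70-3* and *Hsc70-5*, and *Hsf*, which encodes the heat shock transcription factor. All 10 had the 10 summed counts needed to be tested, as did 11128 genes in total. Poly(A) RNA was sequenced from *Drosophila melanogaster* ovaries with germline *aramis* RNAi (2 libraries) and with germline *bam* RNAi (2 libraries), the developmental control of the series. In both genotypes the hairpin was driven by *Nos*GAL4, a driver active in germ cells, together with *UAS-Dicer2*, so the RNAi acted in germ cells while the RNA came from whole ovaries. Females were fed yeast and dissected 1 to 3 days after eclosion in both groups, and the labels name no heat treatment. The annotation lists *aramis*, a DEAD-box RNA helicase gene, as *ais*. *bam* promotes differentiation of the germline stem cell daughter, and *bam*-depleted germaria hold an excess of undifferentiated germ cells.

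Hsp70 and Hsp90 proteins bind unfolded or immature client proteins and release them through cycles of ATP hydrolysis. The inducible *Hsp70* genes and *Hsp68* are nearly silent in unstressed flies and are transcribed within minutes of heat shock, when trimers of Hsf bind heat shock elements in their promoters. *Hsp83* and the cognates are made all the time. In the ovary, *Hsp83* mRNA is abundant in the germline, and Hsp90 also takes part in small RNA loading.

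Libraries held from 12977013 to 16754980 counts, and 3 counts, the floor used here, were 0.179 to 0.231 CPM (counts scaled to a library total of 1000000). Values below are normalised counts, which are counts divided by the DESeq2 size factor of the library, unless another scale is named. The labels do not say whether the 2 libraries of a group came from separate sets of flies, so the p-values measure the spread between these libraries only. An exact permutation test of 2 against 2 libraries cannot go below a two-sided p of 0.333. The targeted gene *ais* had 117 and 153 normalised counts in *aramis* RNAi, against 910 and 323 in *bam* RNAi (log2 fold change -2.19, DESeq2 adjusted p = 0.00186). *bam* had 50.3 and 72.7 in *aramis* RNAi, against 59.98 and 70.4 in *bam* RNAi, so the libraries labelled *bam* RNAi did not have less *bam* mRNA. Between replicates of 1 group, log2 ratios moved with transcript length over 7698 genes (Spearman rho -0.47 in *aramis* RNAi and 0.31 in *bam* RNAi, replicate 1 over replicate 2). Of 18 germline markers matched, 13 were lower in *aramis* RNAi by the DESeq2 test (6 without *aramis* RNAi replicate 1 and 7 without *aramis* RNAi replicate 2). Their summed level was 1445 and 1677 CPM in *aramis* RNAi, against 4069 and 5617 CPM in *bam* RNAi, and the germ cell genes *vas* and *nos* were not analysed here. Of 11 muscle markers 5 rose (0 without *aramis* RNAi replicate 1, 2 without *aramis* RNAi replicate 2 and 11 without *bam* RNAi replicate 1), with sums of 45629 and 46787 CPM in *aramis* RNAi, against 23369 and 18102 CPM in *bam* RNAi. Of 7 hemocyte markers 5 rose, with sums of 4531 and 5745 CPM in *aramis* RNAi, against 3409 and 1313 CPM in *bam* RNAi. By the DESeq2 test with all 4 libraries, 7.04% of all tested genes were lower and 8.9% higher. None of the germline, muscle or hemocyte markers was at 0 in all libraries. In bulk ovaries, fewer cells of a type and less RNA per cell cannot be told apart, and the part of these marker changes in the results below was not tested.

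Past a DESeq2 adjusted p of 0.05 were 4 of the 10 members, all lower in *aramis* RNAi: *Hsp70Bb*, *Hsp70Bc*, *Hsp68* and *Hsp83*. Of all tested genes, 7.04% were called lower and 8.9% higher. No call was made for *Hsp70Aa*, *Hsp70Ba*, the 3 cognates or *Hsf*. Log2 fold changes (*aramis* RNAi over *bam* RNAi) had a median of -1.40 in the members and -0.09 in all tested genes. Of the members 4 are *Hsp70* copies that may share reads, so the median and the count of calls weigh related rows more than once. With the *Hsp70* copies replaced by their sum, 3 were called lower. For 5 members both *aramis* RNAi libraries lay below both *bam* RNAi libraries, a pattern found in 30.3% of tested genes. With edgeR, 2 members were lower, against 4.74% of all tested genes. A fit without 1 library leaves 1 group with a single library, which is assumed to vary like the other group, and calls over all genes became fewer in 3 of the 4 such fits. In them 1 member was lower without *aramis* RNAi replicate 1 (0.955% of all tested genes), *aramis* RNAi replicate 2 (1.82%) or *bam* RNAi replicate 1 (4.58%). The count was 4 when *bam* RNAi replicate 2 was left out (11% of all tested genes). *Hsp70Bb* was called in each of those fits.

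**Figure D1:**
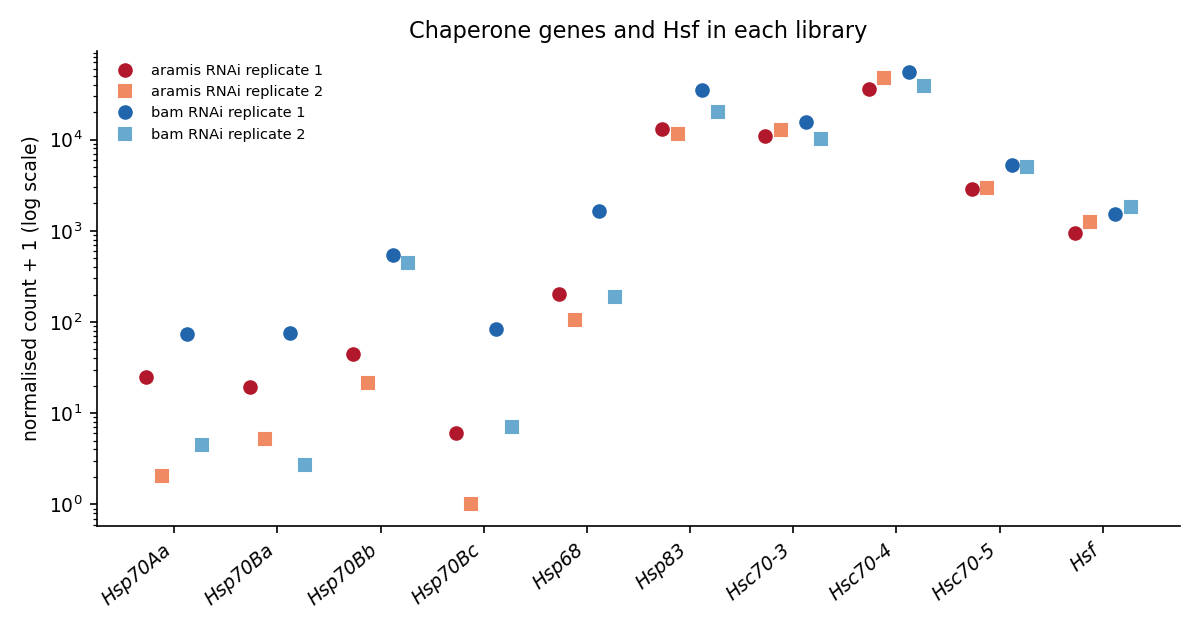
Normalised counts plus 1 (log scale) of the 10 genes, 1 point per library, with *aramis* RNAi in red and orange and *bam* RNAi in blue. *Hsp70Bb* is high in both *bam* RNAi libraries, whereas the other *Hsp70* copies and *Hsp68* are highest in *bam* RNAi replicate 1, well above *bam* RNAi replicate 2.

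The *Hsp70* copies come first by role, as the genes most responsive to heat. The fly genome of the dm6 assembly carries 6 copies in 2 clusters of chromosome arm 3R, each copy with a single exon. *Hsp70Aa* (FBgn0013275; 11954163 to 11956544, minus strand) lies in one cluster with *Hsp70Ab*. *Hsp70Ba* (FBgn0013277; 12465453 to 12467776, minus strand), *Hsp70Bb* (FBgn0013278; 12505793 to 12508139, plus strand) and *Hsp70Bc* (FBgn0013279; 12509076 to 12511461, plus strand) lie in the other with *Hsp70Bbb*. Copies of this family are close in sequence and may share reads. How reads that match several copies were counted is not given in the sources used here, so single-copy values are uncertain, and the sum over the 6 copies is given beside them.

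*Hsp70Bb* was the copy with the most counts in every library. It had 43.1 and 20.3 normalised counts in *aramis* RNAi, against 545 and 439.6 in *bam* RNAi. Both *aramis* RNAi libraries were far below both *bam* RNAi libraries, and the lower *bam* RNAi value was 10.2-fold above the higher *aramis* RNAi value. Libraries averaged 31.7 ± 16.1 in the *aramis* RNAi group and 492 ± 74.6 in the *bam* RNAi group (SD, n = 2 each), and the first mean was 6.44% of the second. This gave a log2 fold change of -3.95 ± 0.55 (SE, with a DESeq2 adjusted p of 3.98e-10). It ran from -3.50 to -4.57 when single libraries were left out, with the gene past the threshold in each fit.

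The other copies behaved differently between libraries. *Hsp70Aa* had 23.6 and 1.07 normalised counts in *aramis* RNAi, against 73.7 and 3.43 in *bam* RNAi. *Hsp70Ba* had 18.5 and 4.27 in *aramis* RNAi, against 74.7 and 1.72 in *bam* RNAi. For both genes *bam* RNAi replicate 1 was highest, *aramis* RNAi replicate 1 was next, and the other libraries were near the floor, so the groups overlapped. *Hsp70Aa* was at a log2 fold change of -1.64 ± 1.39 (SE, with a DESeq2 adjusted p of 0.456) and *Hsp70Ba* at -1.74 ± 1.36 (SE, with a DESeq2 adjusted p of 0.410). With *bam* RNAi replicate 1 left out these turned to 1.86 and 2.74, and DESeq2 gave no adjusted p.

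*Hsp70Bc* had 5.13 and 0 normalised counts in *aramis* RNAi, against 82.1 and 6.01 in *bam* RNAi. The groups did not overlap, but *aramis* RNAi replicate 1 (5 counts) and *bam* RNAi replicate 2 (7 counts) were nearly level. Its log2 fold change of -4.09 ± 1.45 (SE, with a DESeq2 adjusted p of 0.0335) was -1.21 without *bam* RNAi replicate 1, with no adjusted p given, and the edgeR adjusted p was 0.0639. The call was also lost when *aramis* RNAi replicate 1 or replicate 2 was left out, with the log2 fold change at -7.78 and -3.08. Germline marker scaling without *bam* RNAi replicate 1 turned the log2 fold change to 1.11. The median of all tested genes was 2.25 in that fit.

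The 2 copies outside the member list held few counts. *Hsp70Ab* (FBgn0013276), whose exon overlaps that of *CG3281* on the other strand, had 10 and 2 counts in *aramis* RNAi, against 57 and 0 in *bam* RNAi. *Hsp70Bbb* (FBgn0051354; 12502510 to 12504856, plus strand), the neighbour of *Hsp70Bb* with the same annotated length of 2347 nt, had 0 and 0 counts in *aramis* RNAi, against 1 and 0 in *bam* RNAi. It was not tested. A count of 0 allows up to 3 counts, or 0.231 CPM at most in these libraries.

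Summed over the 6 copies, *Hsp70* had 98 and 26 raw counts in *aramis* RNAi, against 795 and 525 in *bam* RNAi. Scaled by size factors these were 101 and 27.8 in *aramis* RNAi, against 837 and 451 in *bam* RNAi. Both *aramis* RNAi libraries were below both *bam* RNAi libraries. In a fit in which the 6 rows were replaced by their sum, it had a log2 fold change of -3.32 ± 0.61 (SE, with a DESeq2 adjusted p of 5.94e-06). The sum stayed past the threshold when any single library was left out, at -2.66 to -4.51. It does not depend on how reads were split among the copies, though reads left uncounted would be missing from it.

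The make-up of this sum differed between libraries. *Hsp70Bb* held 42.9% of the counts of the 6 copies (exact 95% interval 32.9 to 53.3) in *aramis* RNAi replicate 1 and 73.1% (52.2 to 88.4) in *aramis* RNAi replicate 2. In *bam* RNAi it held 65.2% (61.7 to 68.5) in replicate 1 and 97.5% (95.8 to 98.7) in replicate 2. These intervals cover counting error only, since PCR copies of a molecule are counted as separate reads. The *bam* RNAi libraries had nearly equal *Hsp70Bb* counts, 518 and 512, but 277 and 13 counts for the other 5 copies together. In *aramis* RNAi the other 5 copies held 56 and 7 counts, so *aramis* RNAi replicate 1 was above *bam* RNAi replicate 2. The difference between genotypes that was free of overlap was in *Hsp70Bb*, together with *Hsp70Bc* at low counts.

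**Figure D2:**
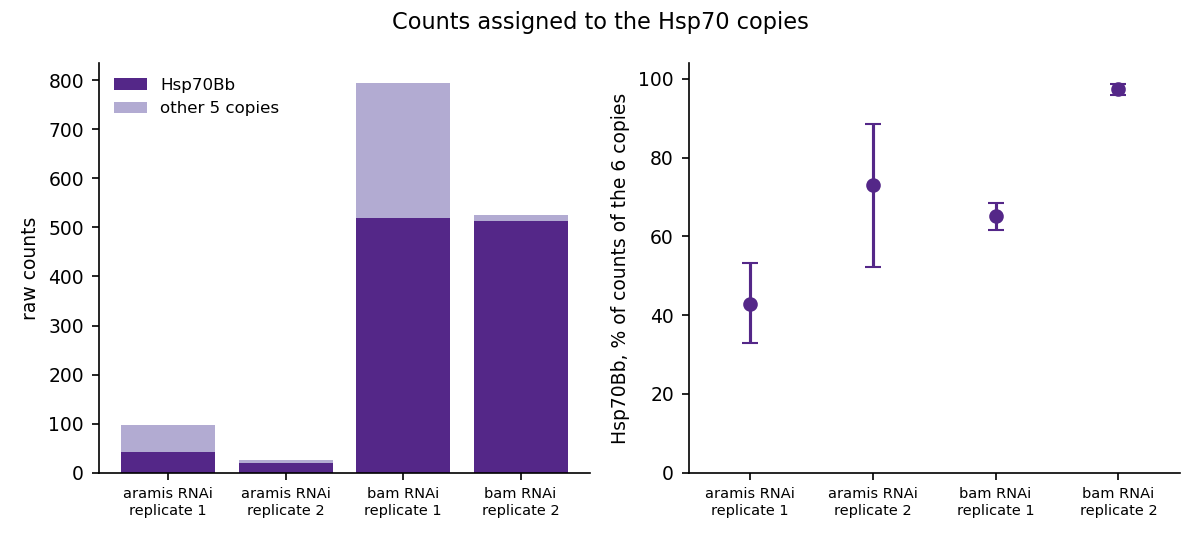
Left, raw counts of *Hsp70Bb* (dark) and of the other 5 *Hsp70* copies (light) in each library; right, the share of *Hsp70Bb* among the counts of the 6 copies, in percent, with exact 95% intervals that cover counting error. *Hsp70Bb* counts are 518 and 512 in *bam* RNAi, while the other copies hold 277 counts in replicate 1 and 13 in replicate 2.

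*Hsp68* (FBgn0001230; 3R, 24055080 to 24057310, minus strand) encodes a further heat-inducible Hsp70 protein, and like the copies above it has a single exon. It had 202 and 105 normalised counts in *aramis* RNAi, against 1648 and 186 in *bam* RNAi. Only *bam* RNAi replicate 1 stood out, 8.84-fold above its replicate, and *bam* RNAi replicate 2 lay within the *aramis* RNAi range. Its log2 fold change of -2.58 ± 0.73 (SE, with a DESeq2 adjusted p of 0.00579) came to -0.27 (DESeq2 adjusted p = 0.853) without *bam* RNAi replicate 1, and to 2.01 with germline marker scaling and that library left out. When *aramis* RNAi replicate 1 or replicate 2 was left out the change on the log2 scale came to -3.10 (DESeq2 adjusted p = 0.0843) and -2.17 (DESeq2 adjusted p = 0.200), so the call was lost while the size of the change remained near that with all libraries. An exon of *CG6000* overlaps *Hsp68* on the other strand, and that gene had 9 to 28 counts.

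*Hsp83* (FBgn0001233; 3L, 3192969 to 3197059, plus strand) encodes the cytosolic Hsp90 of the fly, which folds kinases and other signalling proteins. It had 13053 and 11431 normalised counts in *aramis* RNAi, against 34630 and 20098 in *bam* RNAi. Both *aramis* RNAi libraries were below both *bam* RNAi libraries, and the nearest values differed 1.54-fold. Libraries averaged 12242 ± 1147 in the *aramis* RNAi group and 27364 ± 10275 in the *bam* RNAi group (SD, n = 2 each), with *bam* RNAi replicate 1 again the highest library. Its log2 fold change of -1.16 ± 0.43 (SE, with a DESeq2 adjusted p of 0.0436) was close to the threshold, and it turned to 0.65 (DESeq2 adjusted p = 0.269) when libraries were scaled to the germline markers. The edgeR test did not call it (edgeR adjusted p = 0.0862), nor did fits without *bam* RNAi replicate 1 (log2 fold change -0.71, DESeq2 adjusted p = 0.123), *aramis* RNAi replicate 1 (-1.23, DESeq2 adjusted p = 0.412) or *aramis* RNAi replicate 2 (-1.05, DESeq2 adjusted p = 0.405). *CG14966* overlaps *Hsp83* on the other strand and had 45 to 153 counts, few beside those of *Hsp83*.

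The cognates differed less. *Hsc70-4* (FBgn0266599; 3R, 15242687 to 15246614, plus strand), the main cytosolic Hsp70, acts in folding and in the uncoating of clathrin vesicles. It had 35677 and 47829 normalised counts in *aramis* RNAi, against 54529 and 38726 in *bam* RNAi. The groups overlapped. The log2 fold change was -0.16 with a 95% interval of -0.98 to 0.66 (DESeq2 adjusted p = 0.833), which leaves room for a change of almost 1 log2 unit downwards. It was 0.06 without *aramis* RNAi replicate 1, 0.11 without *bam* RNAi replicate 1 and 1.67 with germline marker scaling.

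*Hsc70-3* (FBgn0001218; X, 11801696 to 11807117, minus strand) encodes the Hsp70 of the endoplasmic reticulum, known as BiP. It had 10841 and 12599 normalised counts in *aramis* RNAi, against 15652 and 10149 in *bam* RNAi. The groups overlapped here too, and the log2 fold change was -0.14 with a 95% interval of -0.96 to 0.68 (DESeq2 adjusted p = 0.857). It was 0.21 without *bam* RNAi replicate 1 and 1.68 with germline marker scaling.

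*Hsc70-5* (FBgn0001220; 2R, 14252598 to 14256192, minus strand) encodes the mitochondrial Hsp70, which pulls proteins into the matrix and folds them there. Its replicates were the closest of any member, with 2894 and 2937 normalised counts in *aramis* RNAi, against 5247 and 5037 in *bam* RNAi. The groups did not overlap, and the *aramis* RNAi mean was 56.7% of the *bam* RNAi mean. This was a log2 fold change of -0.82 ± 0.39 (SE, 95% interval -1.59 to -0.05), with an unadjusted p of 0.0375 and a DESeq2 adjusted p of 0.136, so it was not called. It was called with total-count scaling (log2 fold change -1.18, DESeq2 adjusted p = 0.0202), and germline marker scaling turned it to 1.05 (DESeq2 adjusted p = 0.0368).

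*Hsf* (FBgn0001222; 2R, 18130303 to 18134634, minus strand) had 944 and 1247 normalised counts in *aramis* RNAi, against 1529 and 1844 in *bam* RNAi. The lower *bam* RNAi value was 1.23-fold above the higher *aramis* RNAi value, a gap smaller than that between the 2 *aramis* RNAi libraries. The log2 fold change was -0.62 with a 95% interval of -1.45 to 0.20 (DESeq2 adjusted p = 0.322), and it turned to 1.27 (DESeq2 adjusted p = 0.0120) with germline marker scaling. *bam* RNAi replicate 1, the library with the most *Hsp70*, *Hsp68* and *Hsp83*, did not have the most *Hsf*.

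**Figure D3:**
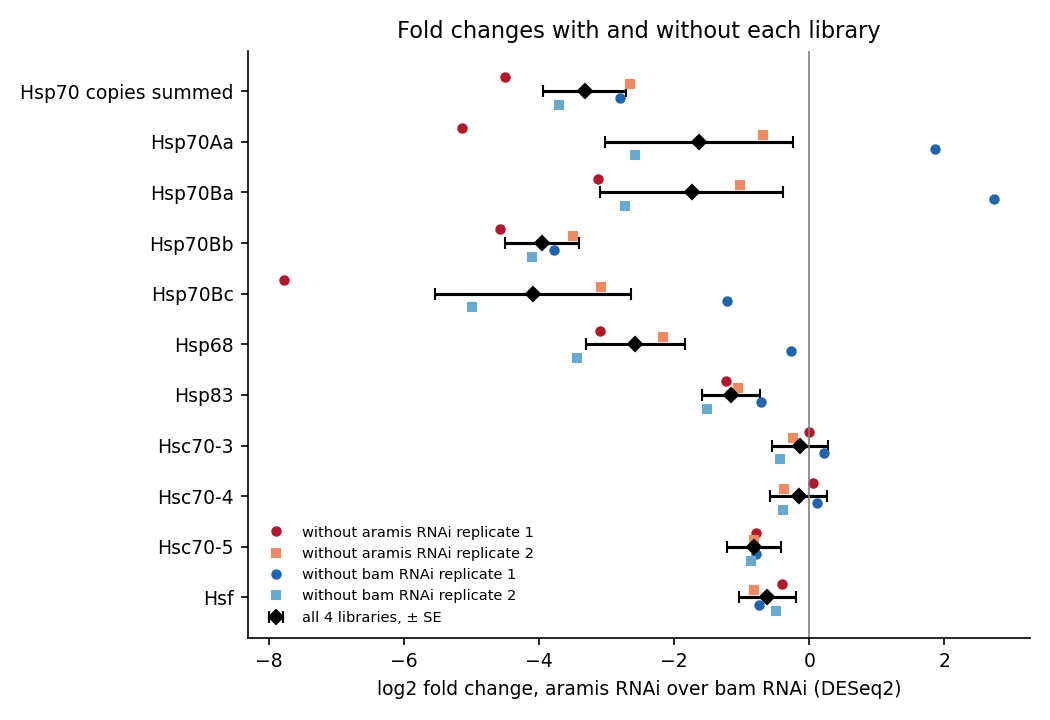
DESeq2 log2 fold changes (*aramis* RNAi over *bam* RNAi) of the 10 genes and of the summed *Hsp70* copies with all 4 libraries (black, bars are ± 1 SE) and without each library in turn (coloured). *Hsp70Bb* and the sum stay at -2.66 or below, whereas *Hsp70Aa* and *Hsp70Ba* turn positive, and *Hsp68* moves to -0.27, without *bam* RNAi replicate 1; with germline marker scaling, which is not drawn, *Hsp83*, the 3 cognates, *Hsf* and *Hsp70Aa* are above 0.

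The direction of the smaller changes depended on the scaling. Over all tested genes, log2 fold changes had a median of -0.09 with the DESeq2 size factors, -0.45 with total counts and 1.79 with germline marker scaling, and the members were therefore also set against that median. Relative to it, *Hsp70Bb* was at -3.87, -3.87 and -3.90 under the 3 scalings, and *Hsp83* at -1.07, -1.06 and -1.14. *Hsc70-5* was at -0.73, -0.73 and -0.75, and *Hsf* at -0.54, -0.54 and -0.53. *Hsc70-4* was close to the median gene under each, at -0.07, -0.06 and -0.12. A change of scaling shifts nearly all genes alike, and taking off the median removes that shift. Near-equal values under the 3 scalings therefore follow from the measure and are no test of the members. With total-count scaling the groups no longer overlapped for *Hsp68*, *Hsc70-3* and *Hsc70-4*, all lower in *aramis* RNAi. That scaling called 14.5% of all tested genes lower, and the share of genes without overlap under it was not computed. Relative to its median, *Hsc70-3* was at -0.04, *Hsc70-4* at -0.06 and *Hsp68* at -2.46. With germline marker scaling *Hsp70Bb* was still lower in *aramis* RNAi (log2 fold change -2.10, DESeq2 adjusted p = 0.00351), the summed copies were at -1.51 (DESeq2 adjusted p = 0.0563), and 4 members were called higher, against 58.9% of all tested genes. *Hsp70Bb* was then the only member called lower, against 0.431% of all tested genes.

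Levels of the genes were compared with each other as CPM per kilobase of the longest transcript. In *aramis* RNAi the order of the means was *Hsc70-4* (1046 ± 241), *Hsp83* (245 ± 16.7), *Hsc70-3* (218 ± 28.7), *Hsc70-5* (59.1 ± 2.13), *Hsf* (22.4 ± 4.95) and *Hsp68* (4.05 ± 1.73), each as CPM per kilobase ± SD with n = 2. *Hsp83* and *Hsc70-3* were within each other's range, and the other neighbours were not. The *Hsp70* members followed, with *Hsp70Bb* at 0.795 ± 0.387 CPM per kilobase and the rest at 0.302 or less. In *bam* RNAi the order began the same way, with *Hsc70-4* at 1488 ± 280, *Hsp83* at 696 ± 227, *Hsc70-3* at 306 ± 76.7 and *Hsc70-5* at 134 ± 3.17 CPM per kilobase, and no neighbours among these overlapped. *Hsf* (44.4 ± 8.16), *Hsp68* (30.3 ± 33.6) and *Hsp70Bb* (15.9 ± 1.58) came next, and *Hsp68* spanned the values of both of the others.

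Among 16647 genes with a known length, *Hsc70-4* ranked 84 and 41 by CPM per kilobase in *aramis* RNAi, against 15 and 43 in *bam* RNAi. *Hsp83* ranked 317 and 304 in *aramis* RNAi, against 66 and 120 in *bam* RNAi. Its ranks did not overlap between the genotypes, nor did those of *Hsc70-3*, *Hsc70-5*, *Hsf* and *Hsp70Bb*. *Hsc70-3* ranked 401 and 300 in *aramis* RNAi, against 174 and 280 in *bam* RNAi. The share of all ranked genes with such a shift was not computed. *Hsp68* ranked 6252 and 7325 in *aramis* RNAi, against 1531 and 6600 in *bam* RNAi. Together the 10 genes took 0.370% and 0.459% of all counts in *aramis* RNAi, against 0.835% and 0.603% in *bam* RNAi.

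A ratio between 2 genes of the same library needs no scaling between libraries. Per kilobase, *Hsp83* was at 29.3% and 19.1% of *Hsc70-4* in *aramis* RNAi, against 50.8% and 41.5% in *bam* RNAi. The summed *Hsp70* copies were at 0.283% and 0.0583% of *Hsc70-4* in *aramis* RNAi, against 1.54% and 1.17% in *bam* RNAi. Neither ratio overlapped between the genotypes. The *Hsc70-3* ratio overlapped, with 22.6% and 19.6% in *aramis* RNAi, against 21.3% and 19.5% in *bam* RNAi. *Hsc70-5* was at 6.57% and 4.98% of *Hsc70-4* in *aramis* RNAi, against 7.80% and 10.5% in *bam* RNAi. *Hsf* was at 2.16% and 2.13% in *aramis* RNAi, against 2.29% and 3.89% in *bam* RNAi. The *Hsc70-5* and *Hsf* ratios did not overlap between the genotypes either. The share of all genes with such a ratio was not computed. On normalised counts, 30.3% of tested genes had both *aramis* RNAi libraries below both *bam* RNAi libraries. For *Hsp68* the ratio overlapped, at 0.602% and 0.232% in *aramis* RNAi, against 3.21% and 0.511% in *bam* RNAi.

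**Figure D4:**
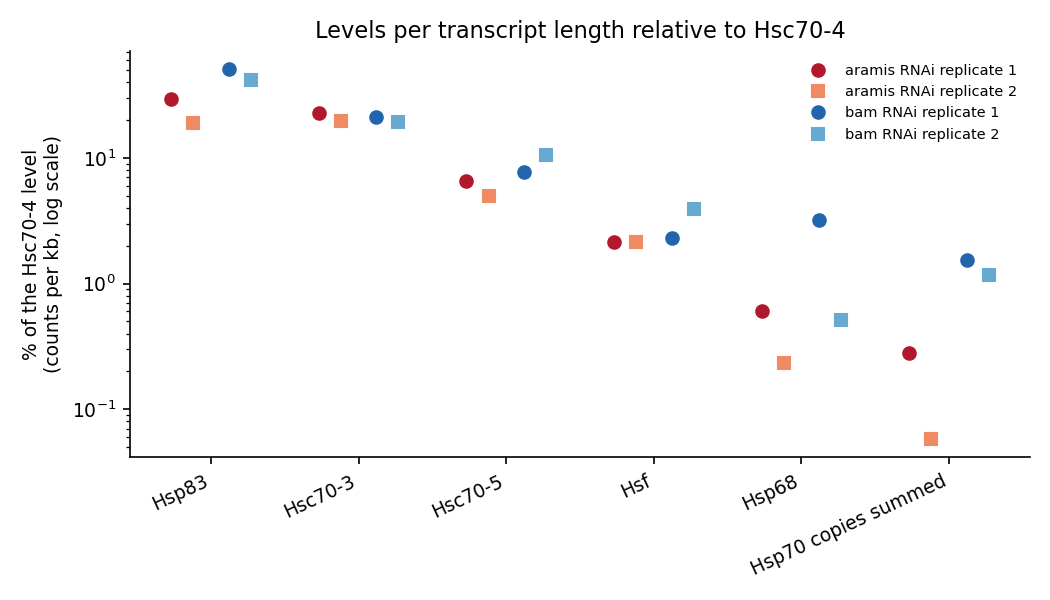
Level of each gene per kilobase of transcript as a percentage of the *Hsc70-4* level in the same library (log scale), 1 point per library. *Hsp83*, *Hsc70-5*, *Hsf* and the summed *Hsp70* copies separate *aramis* RNAi from *bam* RNAi, *Hsf* narrowly. *Hsc70-3* sits between 19.5% and 22.6% in all 4 libraries, and *Hsp68* overlaps.

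Hsp70 works with J-domain proteins, which bring clients and stimulate its ATPase, and with factors that exchange or hold its nucleotide. Of 16 tested Hsp70 co-chaperone genes, 2 were lower in *aramis* RNAi by the DESeq2 test, beside 7.04% of all tested genes. None was higher, beside 8.9%, and the median was -0.51 on the log2 scale. The 2 were *HIP* (FBgn0260484) and *HIP-R* (FBgn0029676), related genes for Hsp70-interacting proteins that lie close together on the X chromosome and may share reads. *HIP* had 153 and 295 normalised counts in *aramis* RNAi, against 2389 and 320 in *bam* RNAi (log2 fold change -2.60, DESeq2 adjusted p = 0.00320). *HIP-R* had 256 and 357 in *aramis* RNAi, against 2151 and 270 in *bam* RNAi (log2 fold change -1.98, DESeq2 adjusted p = 0.0300). Like *Hsp68*, both genes were high in *bam* RNAi replicate 1 alone, and neither was called without that library. With germline marker scaling none was lower and 10 of the 16 were higher, beside 58.9% of all tested genes.

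Hsp90 hands its clients through a set of its own partners. Of 13 tested Hsp90 co-chaperone genes, 7 were lower in *aramis* RNAi by the DESeq2 test, beside 7.04% of all tested genes. None was higher, beside 8.9%, and the median log2 fold change was -1.12. With germline marker scaling none was lower and 2 were higher, beside 0.431% and 58.9% of all tested genes. *shu* (FBgn0003401), which encodes an FKBP-type partner needed in the germline for piRNA production, had 385 and 482 normalised counts in *aramis* RNAi, against 1350 and 1602 in *bam* RNAi (log2 fold change -1.77, DESeq2 adjusted p = 0.000809). *Fkbp59* (FBgn0029174), the gene of an FKBP-type immunophilin, had 693 and 948 in *aramis* RNAi, against 3726 and 1986 in *bam* RNAi (log2 fold change -1.80, DESeq2 adjusted p = 0.00193). *spag* (FBgn0015544), the gene of a partner that helps to assemble large protein complexes, had 146 and 213 in *aramis* RNAi, against 1347 and 288 in *bam* RNAi (log2 fold change -2.19, DESeq2 adjusted p = 0.00664). For all 3, both *aramis* RNAi libraries lay below both *bam* RNAi libraries, a pattern found in 30.3% of tested genes. *shu* overlaps *CG46398* and *Fkbp59* overlaps *CG34183* on the other strand, so their counts are uncertain to that extent. The other 4, named after their values were seen, were *Stip1*, the adaptor that joins Hsp70 to Hsp90, the ATPase activator gene *CG1416*, *nudC* and *Dpit47*, at log2 fold changes of -1.12 to -1.51. The calls were lost when either *aramis* RNAi library was left out, and fewer genes were called without *bam* RNAi replicate 1. More were called without *bam* RNAi replicate 2. In the same fits the share of all tested genes called lower also fell and rose.

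Other members of the large chaperone families gave 1 call among 9 tested, beside 7.04% of all tested genes called lower and 8.9% higher. *Hsp110* (FBgn0026418), the nucleotide exchange factor of Hsp70, had 2193 and 3508 normalised counts in *aramis* RNAi, against 15475 and 3401 in *bam* RNAi. With a log2 fold change of -1.73 it was called lower (DESeq2 adjusted p = 0.0273), but not without either *aramis* RNAi library or with edgeR, and *bam* RNAi replicate 2 lay within the *aramis* RNAi range.

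Partners of the cognates in the organelles gave no call with the DESeq2 size factors, all 4 libraries and group as the only term. Of 15 tested genes of folding and stress signalling in the endoplasmic reticulum, the compartment of *Hsc70-3*, none passed the DESeq2 test (0 by edgeR, 2 higher at an unadjusted p under 0.05), with a median of -0.10 on the log2 scale. Of 8 genes of the mitochondrial matrix machinery around *Hsc70-5*, none passed (0 by edgeR, 2 lower at an unadjusted p under 0.05), with a median of -0.71 and all 8 values below 0. With germline marker scaling, 12 of the 15 and 6 of the 8 were called higher, beside 58.9% of all tested genes. At an unadjusted DESeq2 p under 0.05, 1564 of all 11128 tested genes were lower and 1535 higher. Total-count scaling called 1 gene of the first list and 3 of the second lower, beside 14.5% of all tested genes. Leaving out either *bam* RNAi library also gave calls in both lists, lower in the second and in both directions in the first. The share of all tested genes called higher rose in both fits. The share called lower rose only without *bam* RNAi replicate 2.

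Small heat shock genes, many of which are also targets of Hsf, gave calls in both directions. Of 8 tested genes of that list, 2 were lower and 1 was higher in *aramis* RNAi by the DESeq2 test. Of all tested genes, 7.04% were lower and 8.9% higher. With germline marker scaling none of the list was lower and 5 were higher, beside 0.431% and 58.9% of all tested genes. *Hsp27* (FBgn0001226), overlapped by a pseudogene on the other strand, and *Hsp26* (FBgn0001225) encode small chaperones made in the germline, and their log2 fold changes were -2.65 (DESeq2 adjusted p = 2.48e-05) and -2.06 (DESeq2 adjusted p = 0.000392). *Hsp26* had 510 and 500.1 normalised counts in *aramis* RNAi, against 2843 and 1385 in *bam* RNAi. *l(2)efl* (FBgn0011296), a small heat shock gene that overlaps *St3* on the other strand, had 1988 and 1612 in *aramis* RNAi, against 304 and 906 in *bam* RNAi (log2 fold change 1.57, DESeq2 adjusted p = 0.0234). With edgeR and with total-count scaling no gene of the list was higher. The calls of the list were lost without *aramis* RNAi replicate 1, and fewer were made without *aramis* RNAi replicate 2. Calls over all tested genes also became fewer in both fits.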

How the data were processed

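Each library has 1 deposited table, in which the authors give raw, unscaled read counts for FlyBase genes. The submitters' processing notes name the dm6 assembly, HISAT2 (2.1.0), featureCounts (1.4.6) and DESeq2 (1.24.0) with no settings. Strand use and the treatment of multi-mapping reads are not given in the sources used here. RNA was poly(A)-selected with a directional kit and fragmented for 13 minutes.

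Symbols, dm6 positions and lengths came from Ensembl release 115, which covered 16647 of 17023 identifiers. The other 376 held 5.52% to 6.66% of the counts of a library. Genes with at least 10 summed counts were tested with the DESeq2 (1.42.0) Wald test, group as the only term, with Benjamini-Hochberg adjustment over all tested genes. Genes were called at an adjusted p of 0.05. Of 11128 tested genes, 10049 received an adjusted p. Intervals of fold changes are 95% Wald intervals. Alternatives were edgeR (4.0.16), other scalings and filters, removal of a transcript length trend, a fold limit of 2, a replicate block, summed *Hsp70* copies and leaving out each library. The pipeline was tested on simulated counts with 2 libraries a group, where the share of false calls exceeded the nominal rate with both DESeq2 and edgeR, so calls near the threshold are weak.

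Named genes are the 10 members, the targeted genes and the 5 genes most like the *Hsp70* sum. Up to 3 called genes of each chaperone or co-chaperone list are also named, by adjusted p. This rule leaves out the cell type marker lists, whose called genes are not named. *Stip1*, *CG1416*, *nudC* and *Dpit47* fall outside this rule. List symbols were also matched by RefSeq synonyms, a step added after results were seen, which brought in *Hsp110* and *spag*. Members and lists were chosen with earlier results of these data known.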

Additional observations from a re-analysis of the deposited data

How the results depend on the processing

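The decrease of the summed *Hsp70* copies kept its direction under every alternative run and its call under 14. It was not past the threshold with germline marker scaling, at -1.51, or with that scaling and without *bam* RNAi replicate 1, chosen after seeing the data, at -0.51. *Hsp70Bb* kept its call under 15 alternatives and lost it with germline marker scaling without *bam* RNAi replicate 1 (-1.50). In place of 0, 4 members were higher with germline marker scaling, beside 58.9% of all tested genes. The count of lower members (4) was 2 with edgeR, beside 4.74% of all tested genes. It was 1 with the replicate block in DESeq2 (2.49%) or in edgeR (1.72%), and 1 with germline marker scaling (0.431%). Without single libraries it ran from 1 to 4. The cause was not tested.

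The replicate numbers are not said to mark samples handled together, and deviations of same-numbered libraries had a correlation of -0.20 over 11128 genes and of -0.55 over the 7883 with a mean of at least 50 counts. With the replicate block the summed copies were at -3.52 (DESeq2 adjusted p = 9.95e-06), and 277 genes (2.49%) were lower and 438 higher. Over all genes, 783 were lower and 990 higher, against 528 and 639 with edgeR, 1619 and 543 with total-count scaling, 48 and 6558 with germline marker scaling, 103 and 85 without *aramis* RNAi replicate 1, 197 and 233 without *aramis* RNAi replicate 2, 492 and 1116 without *bam* RNAi replicate 1, and 1180 and 1400 without *bam* RNAi replicate 2. Of the Hsp90 co-chaperones, 7 were lower, against 3 with edgeR and 2 with the replicate block, which also left no small heat shock gene higher in place of 1. With the pairing crossed, chosen after seeing the data, 3 members were lower, as were 1372 genes, with 1596 higher.

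With germline marker scaling log2 fold changes changed sign to 1.68 (*Hsc70-3*), 1.67 (*Hsc70-4*), 1.05 (*Hsc70-5*), 1.27 (*Hsf*), 0.65 (*Hsp83*) and 0.062 (*Hsp70Aa*). With that scaling and without *bam* RNAi replicate 1 they were 2.47, 2.36, 1.47, 1.50, 1.55 and 4.18 for the same genes, 2.01 for *Hsp68*, 5.04 for *Hsp70Ba* and 1.11 for *Hsp70Bc*. Over all tested genes the median was 1.79 with germline marker scaling and 2.25 when *bam* RNAi replicate 1 was also left out. Leaving out single libraries, the range crossed 0 for *Hsp70Aa* (-5.14 to 1.86), *Hsp70Ba* (-3.13 to 2.74), *Hsc70-3* (-0.43 to 0.21) and *Hsc70-4* (-0.39 to 0.11). *Hsp70Aa*, *Hsp70Ba* and *Hsp70Bc* gave no value with at least 10 counts in every library. Counts under 10 limit what can be said of these 3 copies.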

Other observations

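By the likeness measure, the genes closest to the summed *Hsp70* copies over the 4 libraries were not chaperone genes of the lists used here. Of the 7251 candidates (mean of 100 normalised counts or more), the smallest root-mean-square differences of centred log2 values were those of *CG42404* (0.50), *dao* (0.56), *E(spl)m3-HLH* (0.57), *nolo* (0.62) and *CG32814* (0.72). *E(spl)m3-HLH*, a Notch target gene of the Enhancer of split complex, had 147 and 66.2 normalised counts in *aramis* RNAi, against 708 and 436 in *bam* RNAi. *CG42404* had 75.0 and 49.1 in *aramis* RNAi, against 623 and 410.4 in *bam* RNAi. These are descriptions over 4 libraries that share their scaling.

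The CCT chaperonin, which folds actin and tubulin, was measured for 7 of its subunit genes. None passed the DESeq2 test (0 by edgeR). At an unadjusted DESeq2 p under 0.05, 4 were lower, as were 1564 of all 11128 tested genes. All 7 log2 fold changes were below 0, with a median of -0.88. With total-count scaling 4 were lower and with germline marker scaling 3 were higher. Without *bam* RNAi replicate 2 some were also called lower, in a fit that called more of all tested genes lower too. Of all tested genes, 14.5% were lower with total-count scaling and 58.9% higher with germline marker scaling. Summed levels of the CCT genes were 1824 and 1674 CPM in *aramis* RNAi, against 3359 and 3536 CPM in *bam* RNAi. The neuronal marker list had no call among 4 genes (0 by edgeR and at an unadjusted p under 0.05). By the DESeq2 test 1 of 12 ovarian somatic genes was lower, and 3 of 5 gut and 2 of 5 fat body genes were higher. Of all tested genes, 7.04% were lower and 8.9% higher by that test. Summed gut markers were 1.43 and 76.3 CPM in *aramis* RNAi, against 0.231 and 2.91 CPM in *bam* RNAi, with *aramis* RNAi replicate 2 standing apart, and no gut marker was called without that library (2 without *aramis* RNAi replicate 1 and 1 without either *bam* RNAi library). Summed fat body markers were 916 and 349.6 CPM in *aramis* RNAi, against 103 and 149 CPM in *bam* RNAi, and 1 was called without *aramis* RNAi replicate 1 or without *bam* RNAi replicate 1. The ovarian somatic call was lost without either *aramis* RNAi library, and more of that list were lower without *bam* RNAi replicate 2. Calls over all tested genes also became fewer and more numerous in those fits.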
